A study of Homo sapiens with 3 samples.

Results

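The DEAD and DEAH box RNA helicase genes were taken as every gene name that reads DDX, a number and at most 1 further letter, or DHX and a number. The rule uses no measured value and found 57 of 26485 names, 41 of the DDX class and 16 of the DHX class. Gene-level read counts came from 3 RNA sequencing libraries of HEK293, a widely used human cell line that began as embryonic kidney cells transformed with adenovirus DNA. The cells were grown in DMEM with 10% fetal calf serum, received no treatment that the labels name, and formed 1 group (n = 3), so no condition could be compared with another. Nothing in the labels ties the replicates to separate cultures, and spreads and p-values therefore measure only how these 3 samples vary, which may be technical. In bulk RNA, fewer cells with a transcript and less of it per cell cannot be told apart. One Y-linked member was kept in all totals and is not described on its own.

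RNA helicases of these families use ATP to unwind short RNA duplexes or to strip proteins from RNA. DEAD-box proteins usually pry open a duplex locally without travelling along it, and they act in translation initiation, mRNA export and ribosome assembly. DEAH-box proteins move along single-stranded RNA from its 3′ side, and several of them drive the remodelling steps of the spliceosome, often with a partner that carries a G-patch. The names refer to motif II, the Walker B element of the ATPase core, which reads Asp-Glu-Ala-Asp in the first family and ends in His in the second.

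The codons of motif II were read from the longest complete coding sequence of each gene (GENCODE release 29, GRCh38), because they are what the names of both classes stand for. The search asked for Asp, then Glu or Asp, then Ala, Cys, Val, Ile or Ser, then Asp or His, in frame and after a pair of hydrophobic codons. Exactly 1 such site was found in each of the 56 members with a coding sequence, and at least 1 in 1.33% of 19504 protein-coding sequences. The remaining member, DDX12P, is a pseudogene. Each choice that the search allowed within motif II occurs in some member, such as Ser in DDX52 alone. A site in every member is therefore no independent result, nor is its contrast with all coding sequences. The fourth codon was one for Asp in 36 of 40 DDX genes and one for His in 16 of 16 DHX genes. DDX11, DDX58, DDX60 and DDX60L were the 4 DDX genes with a His codon there. The full Asp-Glu-Ala-Asp codons were present in 31 DDX genes, and the full Asp-Glu-Ala-His codons in 8 DHX genes and in DDX11. DHX32, the member with the most counts, was the single member whose second codon was one for Asp. The stretches below run 5′ to 3′ along the coding strand, with the 4 codons of motif II in capitals and 4 codons on each side. They show the 5 DDX genes whose counts were 10 or more in all libraries, 3 DHX genes that include DHX32, and 2 DDX genes with a His codon.
DDX28: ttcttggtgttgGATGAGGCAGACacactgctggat
DDX31: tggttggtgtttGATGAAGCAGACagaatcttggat
DDX56: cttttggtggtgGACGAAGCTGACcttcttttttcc
DDX3X: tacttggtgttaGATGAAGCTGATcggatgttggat
DDX21: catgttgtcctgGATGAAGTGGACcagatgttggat
DHX15: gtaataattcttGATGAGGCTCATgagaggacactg
DHX38: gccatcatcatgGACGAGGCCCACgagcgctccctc
DHX32: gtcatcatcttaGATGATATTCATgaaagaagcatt
DDX11: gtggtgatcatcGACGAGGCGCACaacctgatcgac
DDX58: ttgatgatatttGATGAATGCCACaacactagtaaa
The DHX32 stretch lies at chr10:125859876-125859911 on the minus strand, the DDX28 stretch at chr16:68022324-68022359 on the minus strand and the DDX56 stretch at chr7:44572609-44572644 on the minus strand. That of DDX3X lies at chrX:41345181-41345216 on the plus strand and that of DDX21 at chr10:68967116-68967151 on the plus strand. The DDX31 stretch is split by an intron and spans chr9:132648286-132648457 on the minus strand. A match is a description of the letters, and no count can be tied to it.

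The libraries were shallow in gene-assigned counts. Between 289241 and 483114 counts per library were assigned to gene names, or 2.02% ± 0.396 (SD, n = 3) of all records, against 91.2% ± 0.472 that fell in no annotated feature. A single count equalled 2.29, 2.31 and 3.30 CPM (counts per 1000000 of the TMM effective library size) in replicates 1, 2 and 3. No count in a library therefore allows a level of up to 3 counts, or 6.86, 6.92 and 9.89 CPM in the same order, and this limit covers counting error only. Of 9 genes linked to HEK293, 7 had a count, but only KRT8 (27, 31 and 29) and NEFL (16, 12 and 22) reached 10 in each library. VIM had 26, 10 and 9 counts and LIN28B had 10, 7 and 2. KRT18, the keratin that pairs with KRT8, PAX8 and NEFM had 1 count each over the 3 libraries, and PAX2 and LHX1, kidney lineage factors, had none. Each of the 9 except PAX2 shares exon bases with a gene on the other strand, KRT8 and KRT18 with each other. Of 6 markers of other cell types, PECAM1 alone had counts, at 5, 3 and 0. How the counter treated strand is stated neither in the labels nor in the files' headers, while the library kit marks strand. If the strand opposite to the transcripts was counted, the counts under a name would be antisense reads or reads of an overlapping gene, and a 0 would say nothing of the gene's own transcript. Of 18 genes that most cells express strongly, listed after the counts were seen, 17 had a count and 5 reached 10 in each library. Among them ACTB, the cytoplasmic actin gene, had 1, 0 and 1 counts, TUBB had none and EEF2 had 2, 1 and 4, whereas NPM1 had 84, 119 and 72. Which strand was counted was not tested, so each value below is a count under a gene name, for every member and not for overlapping genes alone.

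Helicase names received 768, 759 and 656 counts in replicates 1, 2 and 3, or 0.190% ± 0.0350 (SD, n = 3) of gene-assigned counts. DHX32 alone held most of them, with 50.3%, 60.2% and 54.4% in the same order. DDX28 followed with 9.84% ± 1.06, DDX31 with 4.92% ± 0.526 and DDX56 with 4.41% ± 0.407 (SD, n = 3 each). At least 1 count in some library was recorded for 39 of 57 members (68.4%), against 54.7% of all gene names and 62.7% of protein-coding names. A level of 10 or more counts in all 3 libraries was reached by 6 members (10.5%), against 9.68% of all names and 10.6% of protein-coding names. The share of members at that level was thus close to that of protein-coding names.

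The classes differed in where their counts lay. Counts under DDX names were 357, 275 and 282, and counts under DHX names were 411, 484 and 374, in replicates 1, 2 and 3. DDX names thus took 46.5% of helicase counts in replicate 1 (95% Wilson interval 43.0% to 50.02%), 36.2% in replicate 2 (32.9% to 39.7%) and 43.0% in replicate 3 (39.3% to 46.8%), with a mean of 41.9% ± 5.21 (SD, n = 3). These intervals cover counting error only, and those of replicates 1 and 2 did not overlap. DDX names make up 41 of the 57 names. DHX32 held 94.6% ± 0.784 (SD, n = 3) of the DHX counts. The other 15 DHX genes shared 25, 27 and 17 counts, and with DHX32 and DDX28 both left out the DDX share was 91.0% ± 2.2 (SD, n = 3).

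DDX names were more often detected than DHX names in each library. A count was present for 26, 22 and 23 of 41 DDX names and for 8, 6 and 7 of 16 DHX names in replicates 1, 2 and 3, or 57.7% ± 5.08 against 43.8% ± 6.25 (SD, n = 3). The same share was 47.6% ± 3.49 for protein-coding names, which lay between the classes in each library. Many of these detections rest on 1 or 2 counts, and since no count allows up to 3, a member so detected need not be higher than a member at 0. The median DDX gene had 4.57, 2.31 and 9.89 CPM and the median DHX gene 2.29, 0 and 0 CPM in replicates 1, 2 and 3. All 6 medians lay at or under the value of 3 counts in their library, and the DHX median was 0 in replicates 2 and 3, so neither a fold nor a log difference is given. Exon length was similar, with a median of 5714 bases for DDX and 5906 bases for DHX names. Members are not replicates, and a sign-flip permutation test over 3 libraries cannot give a p below 0.25, so the class difference is described without a test. Grouping by the fourth codon instead of the symbol left the DDX-like share at 39.8% ± 5.19 (SD, n = 3).

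**Figure D1:**
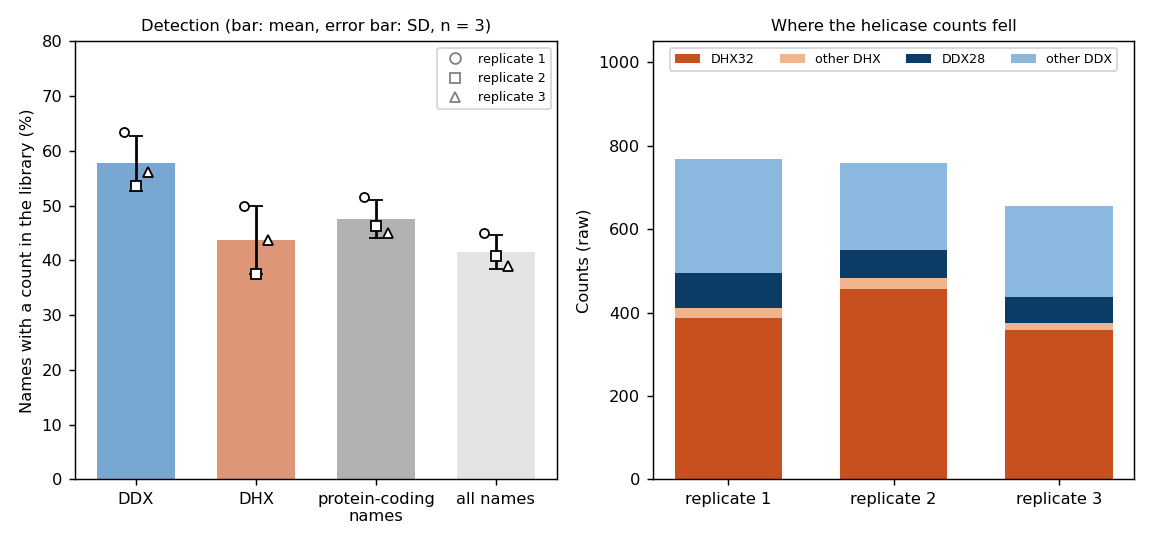
Left, percent of names with a count in each library (y axis) for DDX, DHX, protein-coding and all names, with bars at the mean of 3 libraries, SD error bars and 1 symbol per replicate. Right, raw counts (y axis) under DHX32, the other DHX genes, DDX28 and the other DDX genes in each replicate (x axis); DDX names were detected more often, yet DHX32 took 50.3% to 60.2% of the counts.

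Single genes were then compared by level. DHX32, a DEAH-box protein whose cellular role is little described, had 386, 457 and 357 counts, or 882, 1053 and 1177 CPM in replicates 1, 2 and 3. Its mean of 1037 ± 148 CPM (SD, n = 3) was above every other member in every library. It lies on chromosome 10 from 125836337 to 125896436 on the minus strand (GRCh38). DDX28, an intronless gene for a helicase that helps assemble the mitochondrial ribosome, had 84, 67 and 64 counts. That equalled 192, 154 and 211 CPM, below DHX32 and above each of the other members in all 3 libraries. It lies on chromosome 16 from 68021274 to 68023442, also on the minus strand.

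The next places were not well separated. DDX31, a nucleolar helicase, had 42, 37 and 29 counts or 92.3 ± 6.07 CPM (SD, n = 3). DDX56, which acts in assembly of the large ribosomal subunit, had 35, 30 and 31 counts or 83.8 ± 16.8 CPM (SD, n = 3), and the ranges of these neighbours overlapped. DDX3X, a translation initiation helicase encoded on the X chromosome, had 22, 11 and 18 counts or 45.0 ± 17.6 CPM, and DDX21, which couples ribosomal RNA transcription and processing, had 17, 12 and 18 counts or 41.9 ± 16.1 CPM (SD, n = 3 each). Their ranges overlapped as well. These 4 genes, DHX32 and DDX28 were the 6 at 10 counts or more in each library. Just inside that limit stood DDX3X and DDX21 with lowest counts of 11 and 12. Just outside it were DDX1 and DDX58 with lowest counts of 8, and DDX42, DDX51 and others at 6 or fewer.

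Per kilobase of merged exon, the order among the highest members changed in part. DHX32 stayed first with 263 ± 37.4 CPM per kilobase and DDX28 second with 85.7 ± 13.3 (SD, n = 3 each). DDX56 had 20.6 ± 4.14 CPM per kilobase and DDX31 had 16.6 ± 1.09, the reverse of their order in CPM, and DDX1 followed with 13.1 ± 7.40 (SD, n = 3 each). DDX3X, with 15892 bases of merged exon the longest of the 6, had 2.83 ± 1.11 CPM per kilobase (SD, n = 3).

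**Figure D2:**
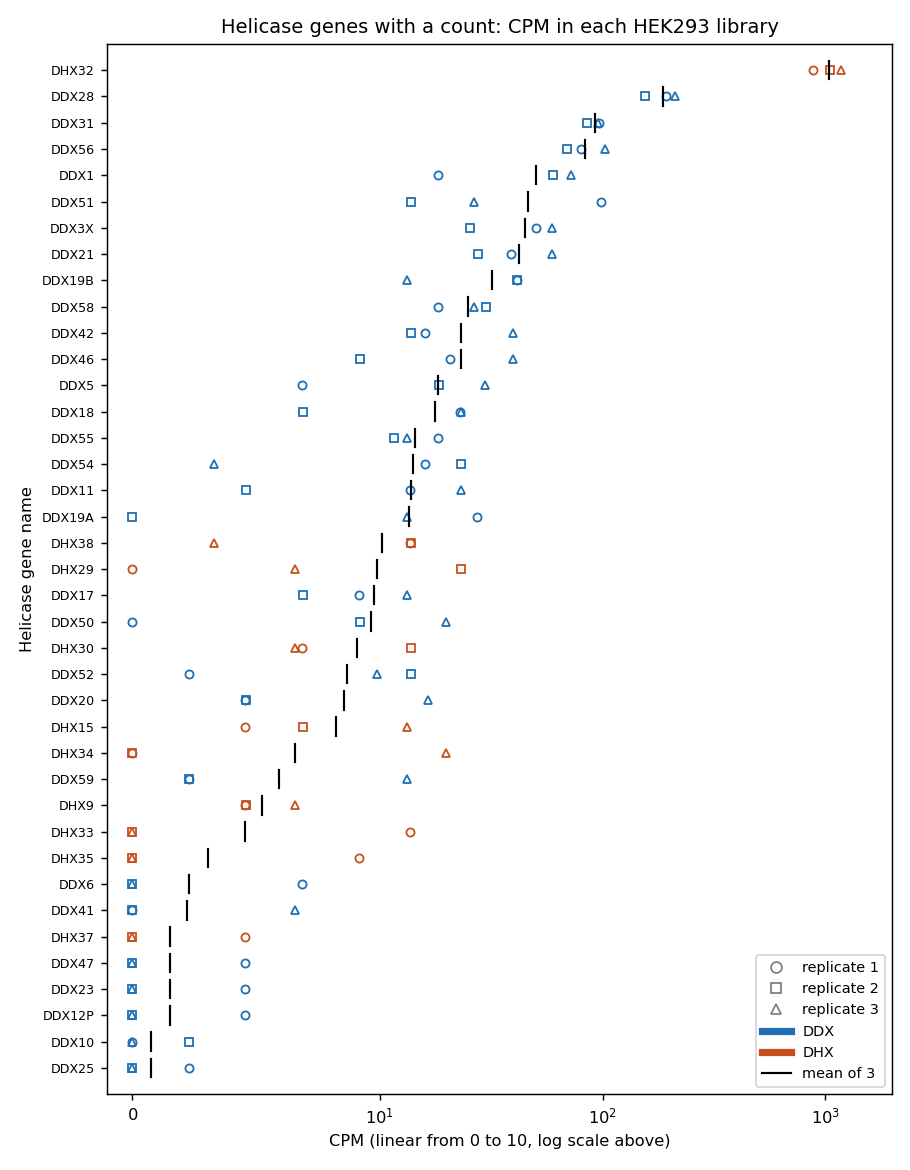
CPM (x axis, linear from 0 to 10 and log above) in each of 3 libraries (symbols) for the 39 helicase names with a count (y axis), DDX in blue and DHX in orange, with a black bar at the mean. DHX32 stands apart at 882 to 1177 CPM, followed by DDX28 at 154 to 211, and most DHX names lie in the lower part of the plot.

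Replicate agreement was tested with edgeR's Poisson fit, which asks whether the 3 libraries differ by more than counting noise. Over all names with at least 10 counts in every library, 45.8% of 2564 were called at an adjusted p under 0.05. Of the 6 helicase genes in that test, DHX32 alone was called (adjusted p = 0.00146 with edgeR), with its highest library 1.33 times its lowest. The other 5 were not called, with edgeR's adjusted p at 0.0994 for DDX3X, 0.184 for DDX21, 0.261 for DDX28, 0.408 for DDX56 and 0.878 for DDX31. Their highest library was 2.34, 2.14, 1.37, 1.48 and 1.13 times their lowest, in the same order. DHX32 had 1200 counts over the 3 libraries and these 5 had 47 to 215 each, so the call does not rank the genes by spread. The call of DHX32 was lost without replicate 1, where the adjusted p was 0.238 with edgeR.

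A limit on the lowest library leaves out genes that were low in a single replicate, so the same test was run on names with a mean of at least 10 counts. There 47.6% of 3635 names were called, and 3 of 9 members: DHX32, DDX1 and DDX51. DDX51, which acts late in assembly of the large ribosomal subunit, had 43 counts in replicate 1 against 6 and 8 in replicates 2 and 3, or 98.3 CPM against 13.8 and 26.4 (adjusted p = 2.38e-07 with edgeR). DDX1, a subunit of the tRNA ligase complex, ran the other way, with 8 counts in replicate 1 against 26 and 22, or 18.3 CPM against 59.9 and 72.5 (adjusted p = 0.00220 with edgeR). Both calls were lost without replicate 1, where edgeR's adjusted p was 0.377 for DDX51 and 0.654 for DDX1. DDX19B, with 18, 18 and 4 counts, was the remaining tested gene and was not called (adjusted p = 0.0793 with edgeR). With no count limit 20.1% of 14482 names were called, and 8 of 39 members, a share close to that background. Replicate 1 alone held the counts of 8 of the 11 members seen in a single library, replicate 3 those of 2 and replicate 2 those of 1. Over all gene names the corresponding shares of 3693 were 46.6% for replicate 1, 27.4% for replicate 2 and 26.0% for replicate 3. DHX33 had 6, 0 and 0 counts, DHX34 0, 0 and 6 and DHX29 0, 10 and 2, and each was among the 8 called with no count limit. DHX33 and DHX34 entered that test only through the library that also gave the call. At so few counts these calls are not read as results about the genes.

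The members were then read by role. Helicases of ribosome biogenesis had 13 of 16 members with a count and 3 of 16 (18.8%) at 10 or more in each library, DDX31, DDX56 and DDX21, with 173, 114 and 107 counts in all. At a mean of 10 counts the share was 4 of 16 (25%), against 15.4% of protein-coding names. For translation, pore export and decay it was 3 of 8 (37.5%) at that mean. At 10 or more in each library it was 1 of 8 (12.5%), against 10.6% of protein-coding names. The members that only the mean let in, DDX51 in the first group and DDX1 and DDX19B in the second, each fell below 10 in some library. DDX18 had 10, 3 and 7 counts, DDX54 had 7, 10 and 1, and DDX55 had 8, 5 and 4. DDX52 had 1, 6 and 3 counts and DDX50 had 0, 4 and 6. DHX37, DDX47 and DDX10 had at most 2 counts in a library, and DDX24, DDX27 and DDX49 had none.

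Of the spliceosome and export helicases, 7 of 11 (63.6%) had a count, close to the 62.7% of protein-coding names. None of the 11 reached 10 in each library, against 10.6% of protein-coding names, and the group had 30, 19 and 31 counts in all. DDX42, linked to the SF3b complex, had 7, 6 and 12 counts, and DDX46, the human Prp5, which acts in early spliceosome assembly, had 9, 4 and 12. Among the DEAH-box splicing factors, DHX38 (Prp16) had 6, 6 and 1 counts, DHX15 (Prp43), which disassembles the spliceosome, had 2, 3 and 4, and DHX35 had 4, 0 and 0. DDX23 had 2, 0 and 0 counts and DDX41 had 0, 0 and 2. DHX8 (Prp22), DHX16 (Prp2), DDX39A and the export factor DDX39B had none in any library.

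Helicases of translation, pore export and decay had 7 of 8 members with a count and 63, 65 and 56 counts in all. DDX3X, DDX1 and DDX19B led the group. DDX1 was placed here by the role list, although the tRNA ligase complex named above is not among the roles in the group's name. DDX19A, the close copy of the pore export factor DDX19B, had 12, 0 and 4 counts. DDX6, a decay and translational repression factor, had 3, 0 and 0 counts, and DHX36, which unwinds RNA G-quadruplexes, had none. The transcription, microRNA and SMN group was detected throughout at low level: DDX5 had 3, 8 and 9 counts, DDX17 had 4, 3 and 4, DDX20 had 2, 2 and 5, and DHX9 had 2 in each library.

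Among innate immune sensors the RIG-I gene DDX58 had 8, 13 and 8 counts or 24.9 ± 5.98 CPM (SD, n = 3), whereas DHX58 (LGP2), DDX60 and DDX60L had none. Of the germ line genes DDX25 had 1, 0 and 0 counts, and DDX4 (the vasa gene), DDX43 and DDX53 had none. The mitochondrial pair was detected in every library, DDX28 as given above and DHX30 with 3, 6 and 2 counts. DDX11, a DNA helicase of sister chromatid cohesion, had 6, 2 and 7 counts and its pseudogene DDX12P had 2, 0 and 0. Outside these roles, DDX59 had 1, 1 and 4 counts. DDX26B, DHX40 and DHX57 had none.

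Several members share sequence with another member, so reads from the shared stretches cannot be placed with certainty. All 36 bases of the motif II stretch were identical between DDX19A and DDX19B. Of the 50-base words in DDX19B transcripts, 14.7% were also in DDX19A, and of those in DDX12P, 43.8% were in DDX11. Records without a unique alignment, 6.77% of all, stood in a summary line of their own and were given to no gene name. Reads of the shared stretches may therefore be missing from both names of a pair. How many were missing was not tested. DDX39A and DDX39B, DDX5 and DDX17, and DDX21 and DDX50 shared no 50-base word.

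Opposite-strand neighbours were examined because reads of an overlapping gene could stand under a helicase name if the strand opposite to the transcripts was counted. Exons of 26 of the 57 members (45.6%) shared at least 1 base with an exon on the other strand, against 34.3% of protein-coding names. These 26 held 77.0%, 84.1% and 77.7% of helicase counts in replicates 1, 2 and 3, or 79.6% ± 3.89 (SD, n = 3), with 48.2% of the members' exon length. The corresponding share was 76.0% ± 1.29 (SD, n = 3) over protein-coding names. Without DHX32 and DDX28 the helicase share was 42.3% ± 5.52 (SD, n = 3). By detection, 18 of the 26 had a count, as had 21 of the 27 members with no gene opposite and 0 of the 4 members that lie over an opposite intron only. Among protein-coding names, 76.4% of those with opposite exons, 63.1% of those over an opposite intron only and 54.5% of those with no gene opposite had a count. With 4 members, the intron-only group is too small to set against that share.

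The 3 members highest by mean CPM each shared exon bases with a gene on the other strand, although the third place is not settled, since the range of DDX56 overlaps that of DDX31. DHX32 shared 409 bases, 10.4% of its exon length, with BCCIP, a BRCA2-interacting protein gene that runs tail to tail with it. BCCIP had 129, 113 and 104 counts, fewer than DHX32 in each library. The single exon of DDX28 lies within DUS2, a tRNA dihydrouridine synthase gene, and shared 487 bases (22.5%) with it. DUS2 had 51, 44 and 27 counts, again fewer than the helicase. DDX31 and GTF3C4, a subunit gene of RNA polymerase III factor TFIIIC, start head to head and share 367 bases, and GTF3C4 had 3, 7 and 7 counts. DDX56, DDX1, DDX51, DDX3X and DDX21, the next in rank, had no opposite-strand gene over them. Of the 6 members at 10 counts or more in each library, 3 thus shared exon bases with the other strand. Among protein-coding names at that level, 1412 of 2031 did, so such overlap is no mark of the high helicases. The nearest protein-coding gene on the other strand of DDX51 was NOC4L, 113 bases from its 5′ end, with no count in any library. That of DDX56 was OGDH, 31521 bases away, with 5, 1 and 3 counts.

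**Figure D3:**
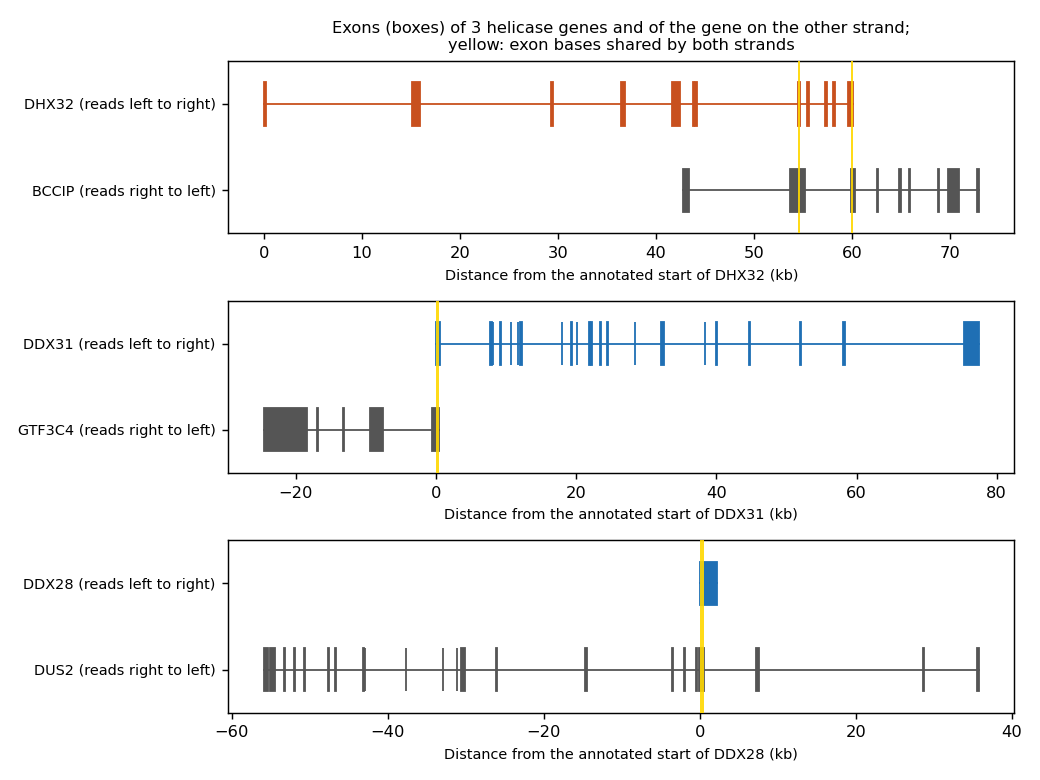
Merged exons (boxes) along distance in kilobases from the annotated start of DHX32, DDX31 and DDX28 (x axis, helicase reading left to right), with the gene on the other strand below each. Yellow marks the 409, 367 and 487 exon bases shared by both strands, at the 3′ part of DHX32, at the start of DDX31 and within DDX28.

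In other pairs the opposite gene had more counts than the helicase. In 19 pairs the opposite gene was itself in the tables: the helicase was higher in every library in 6 and the opposite gene in 7, and both were at 0 in 5. CCDC42B had 199, 93 and 130 counts against 7, 10 and 1 for DDX54, with 501 shared bases, and KDELR3 had 60, 88 and 43 against 4, 3 and 4 for DDX17, with 8 shared bases. EIF2B1, a translation initiation factor subunit gene, had 39, 30 and 20 counts against 8, 5 and 4 for DDX55. ZNFX1 had 22, 18 and 21 counts where DDX27 had none, and ETV4 had 14, 15 and 4 where DHX8 had none. Among tail-to-tail pairs in the tables, the opposite gene was higher in every library in 4 (KDELR3, ZNFX1, CCDC42B and EIF2B1) and the helicase in 2 (DHX32 and DHX38, the latter against PMFBP1 with 1, 0 and 0 counts). At its start DHX38 also shares bases with TXNL4B, which had 7, 8 and 12 counts and was higher than DHX38 in each library. CCDC47 had 3, 5 and 7 counts, below DDX42 in each library, and DDX11-AS1 had 4, 0 and 0, below DDX11. CEP95 had 4, 5 and 3 counts and was above DDX5 in replicate 1 and below it in the others. DDX26B-AS1 had 4, 2 and 1 counts where DDX26B had none. The pairs at 0 on both sides were DDX24 with OTUB2, DDX39B with MCCD1, DDX43 with OOEP and with MB21D1, and DHX16 with C6orf136. The opposite genes of 12 further pairs, among them those of DDX19A, DDX19B, DDX20, DDX52 and DHX29, were not analysed here. Whether counts of either partner arose from the other strand was not tested.

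**Figure D4:**
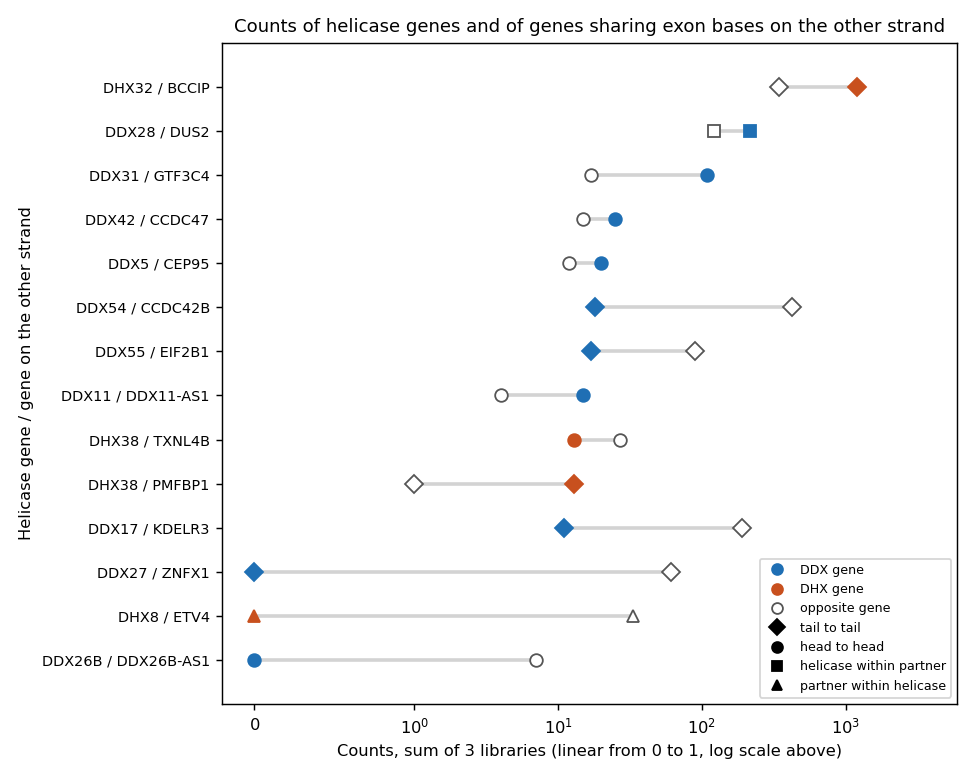
Counts summed over 3 libraries (x axis, linear from 0 to 1 and log above) for each helicase gene (filled) and the gene sharing exon bases on the other strand (open), 1 pair per row; marker shape gives how the genes lie. DHX32, DDX28 and DDX31 exceed their partners, whereas CCDC42B, KDELR3, EIF2B1 and ZNFX1 exceed DDX54, DDX17, DDX55 and DDX27.

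Genes that work with these helicases were read from lists of related names. Of 56 such genes in the tables, 44 had a count and 9 had 10 or more in each library. Among protein-coding names, 62.7% had a count and 10.6% stood at that level. All 9 but GPATCH4 share exon bases with a gene on the other strand, PDCD4, CNOT1, TFIP11 and SKIV2L2 among them. Whether their counts arose from that strand was not tested. EIF4E alone of the 9 was called for variation (adjusted p = 0.0464 with edgeR), against 45.8% of all names tested. The DEAD-box genes with other names were low: EIF4A2 had 22, 7 and 8 counts, EIF4A3, the exon junction helicase, had 7, 6 and 3, and EIF4A1 had none. PDCD4, an inhibitor of eIF4A, had 167, 168 and 125 counts, and CNOT1, the scaffold of the deadenylase that recruits DDX6, had 135, 155 and 119. SKIV2L2, the exosome helicase gene that starts 38 bases from DHX29 on the other strand, had 39, 38 and 35 counts, where DHX29 had 0, 10 and 2. Of the 13 G-patch genes, TFIP11, the partner of DHX15, led with 29, 27 and 25 counts and GPATCH4 had 23, 30 and 13. Of the partners of the DDX19 proteins, GLE1 had 4, 2 and 2 counts and NUP214 had none.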

How the data were processed

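The files the authors deposited give unnormalised counts for each gene symbol in 3 HEK293 libraries. Their 5 summary lines entered neither library sizes nor tests (91.2%, 6.77% and 0.0184% of records for no feature, not unique and ambiguous). Per the labels' protocols, ribosomal RNA was depleted and a directional kit was used, while the titles say mRNA sequencing. Trimmomatic, TopHat2 (given as 2.2.5), HTSeq 0.11.2 and hg38 are named, per the submitters' processing notes. Neither the annotation nor the strand option is stated there.

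CPM used TMM effective sizes (edgeR 4.0.16, R 4.3.3). Names at 10 counts or more in each library were tested with edgeR's generalised linear model at dispersion 0, intercept only, by the deviance, with Benjamini and Hochberg's adjustment over all names tested and a threshold of 0.05. On simulated Poisson counts this called 42.9% of 49 genes changed 1.5-fold in replicate 2, 78.7% of 47 changed 2-fold and 100% of 97 changed 4-fold. Of 2793 unchanged genes it called 0.358%. The simulation drew from the model that the test assumes, so it checks the computation only. In the real libraries 45.8% of 2564 names were called.

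Gene models came from GENCODE release 29 (GRCh38), a stand-in for the annotation used to count (93.0% of 26485 names, and 57 of 57 members). All exons of a gene were merged, and 1 shared base counted as overlap. Coding sequences were translated with biopython 1.88. Members, role lists and named genes were chosen with earlier results of these data known. Named with values were members at 10 counts or more in each library, the 5 highest of each class, 3 on each side of that limit, all DHX genes, the highest and lowest of each role, and the opposite-strand genes of these that are in the tables. Other names were added after their values were seen. Alternatives were other scalings, count limits, statistics, classes and overlap rules, and leaving out each replicate. Class by codon, and leaving out replicates among names with a mean of 10 counts, were chosen after seeing the data.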

Additional observations from a re-analysis of the deposited data

How the results depend on the processing

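The number of members with at least 10 counts in every library was 6, 10 with a limit of 5 counts, 4 with a limit of 20, and 6 to 7 when a replicate was left out. The number of members called for variation was 1 as reported, 1 with DESeq2 size factors or the Pearson statistic, 3 with total assigned counts in place of TMM, where DDX28 and DDX3X joined DHX32, 3 with a mean of 10 counts, 8 with no count limit, and 0 to 1 without a replicate. It was 0 without replicate 1, where the call of DHX32 was lost, as were those of DDX1 and DDX51 among names with a mean of 10 counts; the cause was not tested. The DDX share of helicase counts was 41.9%, 91.0% without DHX32 and DDX28, and 39.6% to 44.7% without a replicate. The share under names with opposite-strand exons was 79.6%, 42.3% without DHX32 and DDX28, 74.9% with protein-coding opposite genes alone, and 77.3% to 80.9% without a replicate. Classing by protein sequence was not run, because no protein table was used here. No paired analysis was possible because there was 1 group. Depth limits what a 0 shows, since it allows up to 3 counts in a library, so shares of detected names would move with depth.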

Other observations

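Of the 3 helicase genes on chromosome 6, all without a count, DHX16 and DDX39B lie at the ends of a stretch from 30653119 to 31542448 (GRCh38), within the major histocompatibility complex. Of 27 protein-coding names inside that stretch, DHX16 and DDX39B themselves included, 5 had a count (18.5%), with 52 counts in all. On the rest of chromosome 6, 581 of 980 protein-coding names had a count (59.3%). The stretch was chosen after these values were seen, and no test was made.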
